A study of Mus musculus with 2 samples.

Results

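The Wnt ligands, their receptors and their secreted modulators were measured in RNA-seq libraries of the neural tube of newborn mice. Members were the protein-coding genes whose symbols follow the Wnt, Fzd, Sfrp, Dkk and Rspo numbering, plus Lrp5 and Lrp6, and 43 genes of 43346 gene rows (21474 protein-coding) met this rule. They were 19 Wnt ligands, 10 Frizzled receptors, the 2 co-receptors Lrp5 and Lrp6, 4 Sfrp and 4 Dkk antagonists and 4 R-spondins. The samples were single neural tubes of 2 B6NCrl pups, called pup 1 and pup 2, of 1 litter at postnatal day 0, with sex not collected and no treatment or transgene recorded. There was 1 group with n = 2 and no contrast, so levels are described and no p-value is given. A difference between the pups rests on 1 library each and has no replicate check.

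Gene rows summed to 26916916 expected counts in pup 1 and 40003518 in pup 2. Genes were compared by TPM, a length-scaled transcript abundance relative to a fixed library total, given for pup 1 and then pup 2 or as mean ± SD (n = 2). A gene was called detected when its TPM was 1 or more in each pup. Against the tissue label, 6 of 6 neuron and 6 of 6 astrocyte marker genes were detected, as were 7 of 10 Hox10 to Hox13 genes. Of 9 genes listed as forebrain and midbrain markers only En1, which is not confined to those regions, was (1.01 and 1.24 TPM). Otx1, Otx2 and Nkx2-1 had 0 counts in both pups. Markers of tissue around the neural tube were also present, with 10 of 10 meningeal and fibroblast, 4 of 5 Schwann cell, 5 of 6 skeletal muscle and 3 of 7 cartilage and bone genes detected. So were 7 of 7 endothelial, 6 of 6 pericyte and smooth muscle, 5 of 5 microglial, 6 of 6 oligodendrocyte lineage, 5 of 6 progenitor and ependymal and 4 of 8 sensory ganglion genes. In such bulk tissue, fewer cells of a type and less RNA per cell cannot be told apart.

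Wnt proteins are secreted, lipid-modified ligands that bind the cysteine-rich domain of Frizzled receptors. With Lrp5 or Lrp6 as co-receptor they stabilise beta-catenin, which then acts with TCF/LEF factors on target genes, and through other co-receptors they steer cell polarity and axon growth. Sfrp proteins bind Wnts outside the cell, Dkk1, Dkk2 and Dkk4 bind the Lrp co-receptors, and R-spondins raise Wnt sensitivity by keeping the ubiquitin ligases Znrf3 and Rnf43 away from Frizzleds. In the developing spinal cord, Wnt1 and Wnt3a mark the roof plate, Wnt7a and Wnt7b act on ingrowing blood vessels, and Wnt4 and Wnt5a guide long axons.

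Ligands, Frizzleds and the antagonists with an Sfrp symbol were present at similar summed levels, with R-spondins and Lrp co-receptors far below them. Summed TPM was 75.3 ± 6.02 for the Wnt ligands, 71.2 ± 1.24 for the Frizzleds, 63.7 ± 1.64 for the Sfrps, 42.3 ± 0.212 for the Dkks, 10.8 ± 1.80 for the R-spondins and 5.67 ± 0.523 for Lrp5 and Lrp6. Relative to the ligand sum, the Frizzled sum stood at 0.990 in pup 1 and 0.906 in pup 2, the Sfrp sum at 0.912 and 0.785, and the Dkk sum at 0.592 and 0.533. The Sfrp sum and its ratio leave out the Sfrp relative Frzb (44.14 and 40.86 TPM), whose symbol is outside the rule. The same gene led its class in both pups for every class but the R-spondins: Wnt7b, Fzd3, Lrp6, Sfrp2 and Dkk3.

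**Figure D1:**
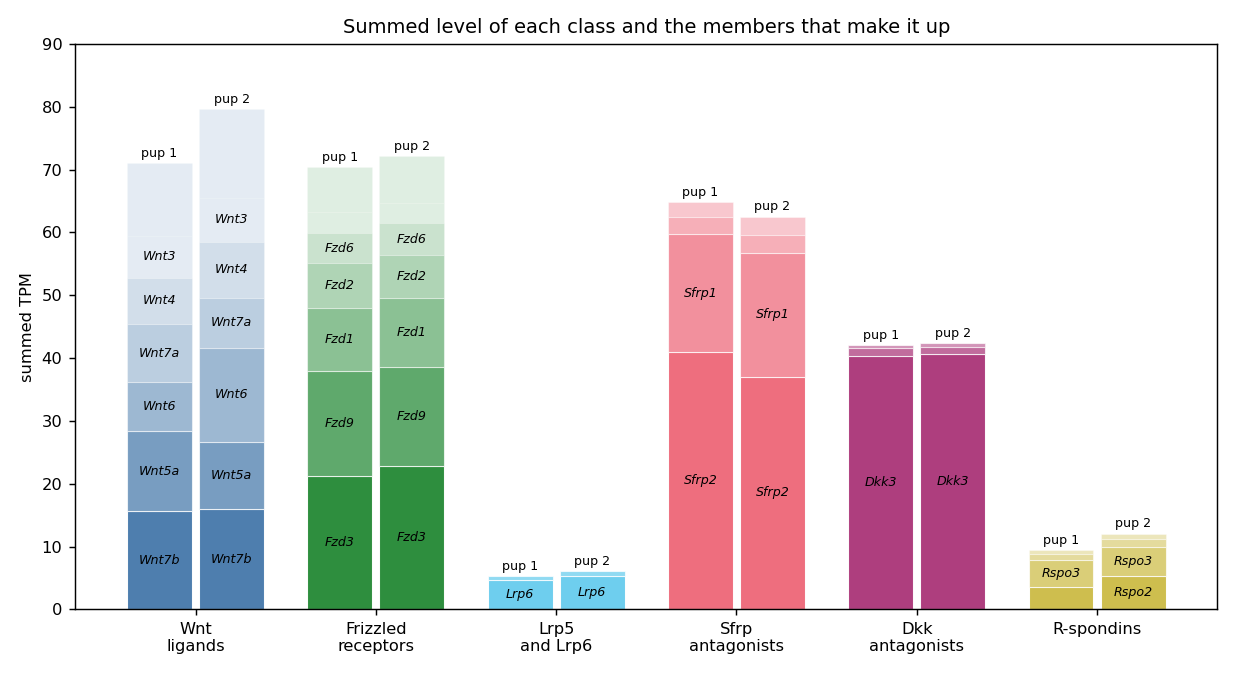
Stacked bars give the summed TPM of each class in pup 1 (left) and pup 2 (right), with segments for members in order of mean level and the palest top segment of the 2 largest classes holding the lowest members; names are printed on segments of at least 4 TPM. Ligand bars reach 71.1 and 79.6 TPM and Frizzled bars 70.4 and 72.1, while Dkk3 alone makes up 95.7% and 95.9% of the Dkk bars.

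Of the 43 members, 27 (62.8%) were detected, beside 63.8% of all protein-coding genes, so the share of members detected lay near the background. Detection was uneven across classes: 9 of 10 Frizzleds and 4 of 4 Sfrps passed, against 9 of 19 Wnts, 2 of 4 Dkks, 2 of 4 R-spondins and 1 of the 2 Lrp genes. Wnt2 passed in pup 1 alone (1.45 and 0.94 TPM), and Rspo1 in pup 2 alone (0.90 and 1.24). The remaining 14 members were below it in both. By the deposited posterior mean TPM, Wnt2 (1.44 and 1.01), Rspo1 (1.11 and 1.41) and Wnt16 (1.59 and 1.23) passed in both pups. The median member stood at 2.62 TPM, and the median protein-coding gene at 5.51.

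**Figure D2:**
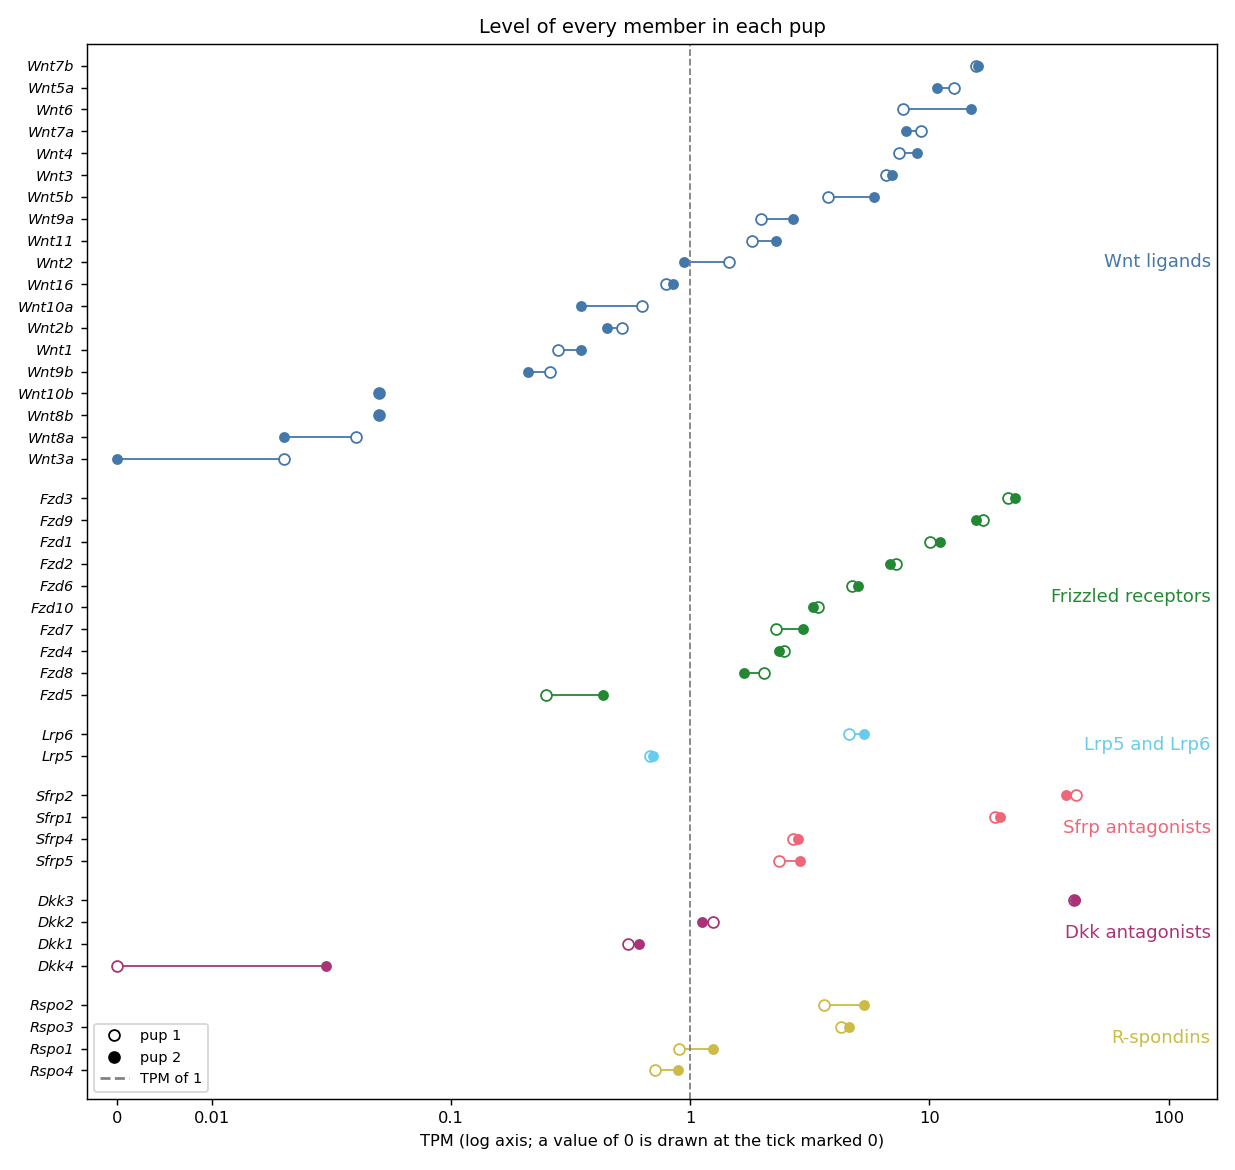
Each row is a member, with open circles for pup 1 and filled circles for pup 2 on a log axis of TPM, grouped by class; the dashed line marks a TPM of 1. Dkk3 and Sfrp2 lie furthest right near 40 TPM, and Wnt3a, Wnt8a, Wnt8b, Wnt10b and Dkk4 lie below 0.1 TPM in both pups.

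Of the ligands, 6 supplied most of the signal. Wnt7b, Wnt5a, Wnt6, Wnt7a, Wnt4 and Wnt3 together made up 83.6% of ligand TPM in pup 1 and 82.3% in pup 2. Wnt7b, the neuroepithelial ligand of the vessel pathway (chromosome 15, 85535437 to 85582473, GRCm38), was first at 15.68 TPM in pup 1 and 15.97 in pup 2. Its levels were close to each other and above every other ligand in both pups. The deposited TPM intervals of Wnt7b still overlapped those of the next ligand in each pup. In pup 1 they were 14.2 to 16.2 for Wnt7b and 11.7 to 16.3 for Wnt5a. In pup 2 they were 14.9 to 16.5 for Wnt7b and 13.4 to 16.4 for Wnt6. The Wnt7b relative Wnt7a (chromosome 6) stood at 9.24 and 7.98 TPM, so Wnt7b exceeded it 1.70 and 2.00 times. Wnt5a, a ligand of polarity and axon guidance, was at 12.69 TPM in pup 1 and 10.75 in pup 2. Wnt6, known from embryonic ectoderm, was at 7.77 TPM in pup 1 and 14.90 in pup 2, the widest gap among the well-counted ligands. The values of Wnt5a, Wnt6, Wnt7a and Wnt4 overlapped those of their neighbours in rank, so their order is not resolved by these pups. Wnt4, an axon guidance and kidney ligand, was at 7.44 and 8.91 TPM, and Wnt3, which is active in limb and axial patterning, at 6.60 and 6.97.

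A middle tier of ligands lay between 1 and 6 TPM. Wnt5b, the paralog of Wnt5a, was at 3.78 TPM in pup 1 and 5.86 in pup 2. Wnt9a, a ligand of joints and other skeletal tissue, stood at 1.98 and 2.69, and Wnt11, a ligand of tissue movement, at 1.81 and 2.29. Wnt9a and Wnt11 overlapped in level. On protein-coding transcripts alone Wnt11 was at 0.56 and 0.89 TPM and no longer detected. Below them came Wnt2 (1.45 and 0.94 TPM), whose best-known roles are in lung and vessels, and Wnt16 (0.79 and 0.85), a ligand of cortical bone.

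Both ligands that define the embryonic roof plate were below 1 TPM, and Wnt3a was at the limit of counting. Wnt1 was low but counted, with 11 and 21 counts (0.28 and 0.35 TPM). Wnt3a had 1 count in pup 1 and 0 in pup 2, where 0 allows up to 3 counts or 0.042 TPM. Of the 5 other genes listed as roof plate markers 3 were detected: Zic1 (10.92 and 9.17 TPM), Msx1 (7.94 and 8.35) and Bmp6 (4.44 and 5.81). Whether these 3 are confined to the roof plate was not tested, and they make up most of the roof plate sum given below. Lmx1a (0.45 and 0.24) and Gdf7 (0.27 and 0.20) were below 1 TPM. Wnt8a had 1 count in each pup, Wnt8b 3 and 4, and Wnt10b 2 and 3, all with TPM of at most 0.05. Wnt10a (0.63 and 0.35 TPM), Wnt2b (0.52 and 0.45) and Wnt9b (0.26 and 0.21) were low but counted, with 18 to 42 counts per pup.

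The 4 pairs of Wnt genes that lie within 100 kb of each other differed in level. On chromosome 1 (GRCm38), Wnt6 at 74771892 to 74785322 stood at 11.3 ± 5.04 TPM, and Wnt10a, which lies 6193 bases beyond its end in the same direction, at 0.49 ± 0.198. On chromosome 11, Wnt3 at 103774150 to 103817957 stood at 6.79 ± 0.262 and its divergent neighbour Wnt9b, 24328 bases away, at 0.235 ± 0.0354. Also on chromosome 11, Wnt9a at 59306928 to 59333552 stood at 2.34 ± 0.502 and its divergent neighbour Wnt3a, 16175 bases away, at 0.010 ± 0.0141. In each of these 3 pairs 1 gene was detected and the other was not. Of the pair Wnt1 and Wnt10b on chromosome 15, 11706 bases apart, neither was detected.

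Transcript shares were examined because several ligands have alternative starts. The annotation gave 25 of 43 members a single transcript, whose share (IsoPct, the percent of the gene's TPM) is 100% by construction. Of the 27 detected members, 11 had several transcripts. The same transcript led in both pups for 9 of these 11, beside 90.4% of 9946 protein-coding genes that were detected with several transcripts. The exceptions were Wnt5a and Wnt11. Not every lead among the 9 was resolved. The TPM interval of the leading transcript overlapped that of another for Wnt7b in pup 2, Wnt9a and Fzd6 in pup 1, and Wnt5b in both. Protein-coding transcripts held at least 90% of TPM in both pups for 9 of the 11, beside 51.2% of the same 9946 genes. Wnt6 and Wnt11 fell below 90%. Transcripts without a match in GENCODE M21 were counted as not protein-coding. None of the 11 members had such a transcript, so this can lower only the share over the 9946 genes.

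**Figure D3:**
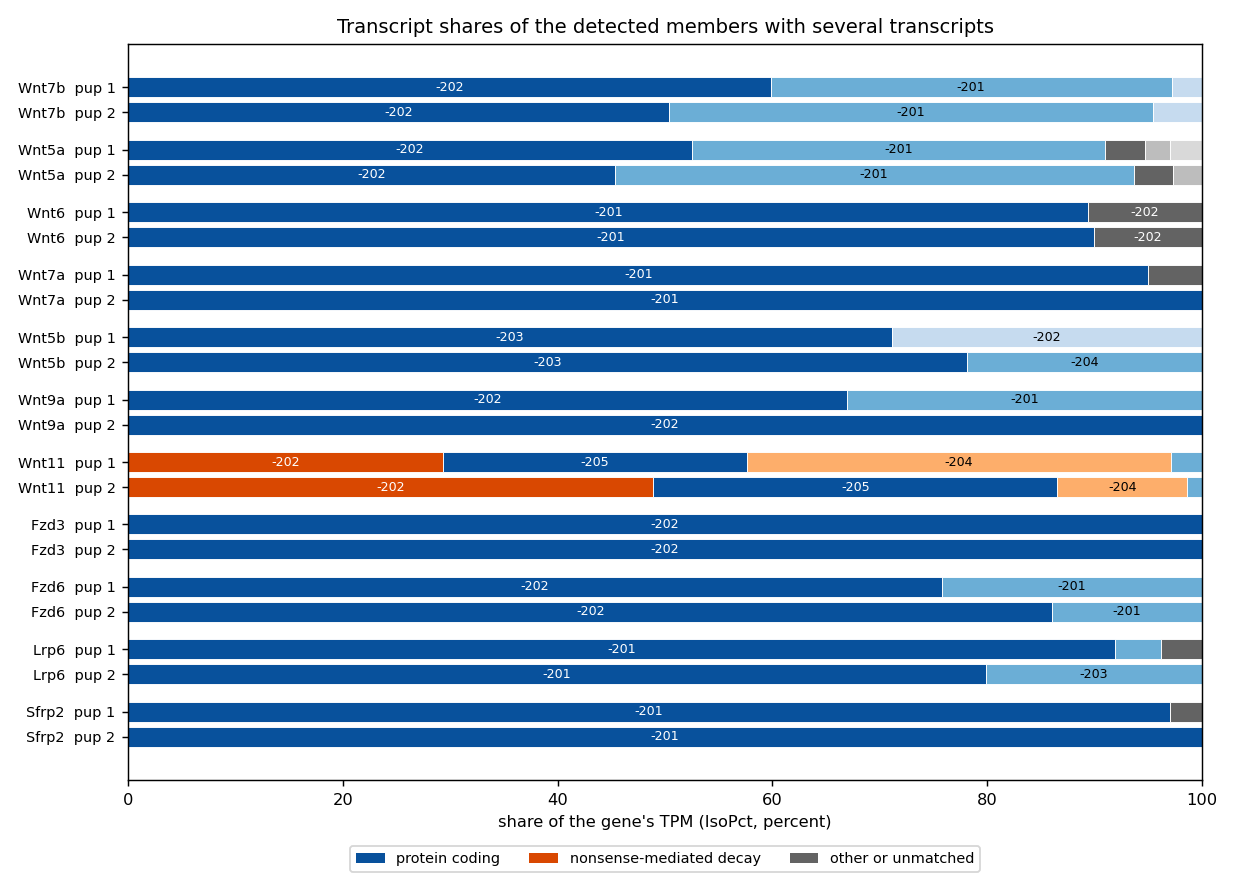
Horizontal bars give the percent of each gene's TPM assigned to each transcript in each pup, for the 11 detected members with several transcripts, coloured by annotated type and with transcript numbers on segments of at least 9%. Wnt7b and Wnt5a are each divided mainly between a pair of transcripts, Wnt11 carries transcripts annotated for nonsense-mediated decay, and Fzd3 rests on 1 transcript.

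Wnt5a was divided between an upstream and a downstream start on chromosome 14. Wnt5a-201 begins at 28504750 and held 38.5% in pup 1 and 48.4% in pup 2. Wnt5a-202 begins in a cluster of starts that opens 6640 bases further on and held 52.5% and 45.3%. The leading transcript by IsoPct therefore changed between pups, but in pup 2 the TPM intervals of both transcripts overlapped, so the lead there is not resolved. The deposited TPM intervals of each transcript overlapped between pups: 4.14 to 5.33 and 4.59 to 5.58 TPM for Wnt5a-201, and 5.37 to 7.47 and 3.86 to 5.54 for Wnt5a-202. The starts matter for the protein, because in GENCODE M21 Wnt5a-201 has 60 coding bases that Wnt5a-202 lacks, followed by the 1080 coding bases that both share. The sequence below shows these 60 bases in capitals and the first shared bases in lower case, 5′ to 3′, from the start codon of Wnt5a-201.
Wnt5a-201 coding start: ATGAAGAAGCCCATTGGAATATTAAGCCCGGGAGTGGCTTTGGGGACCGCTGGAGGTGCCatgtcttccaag

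Wnt5b, by contrast, was assigned mainly to its most upstream start on chromosome 6. Transcripts from that start held 71.1% in pup 1 and 100% in pup 2, or 67.4% and 86.2% by the posterior estimates. Wnt5b-202, which begins 77136 bases downstream, held 28.9% and 0%, with TPM intervals from near 0 up to 1.69 and 1.42. Wnt5b-201, 94961 bases downstream, held 0% in both, or 13.2% and 5.08% by the posterior estimates. The intervals are wide, so the split between the downstream starts is poorly resolved. The protein-coding gene Fbxl14 (1.98 and 2.32 TPM) overlaps Wnt5b on the other strand. The counting is not stated to use strand, so how reads were divided between Wnt5b and Fbxl14 is uncertain. The 250 bases before each of the 3 RefSeq starts (GRCm38.p6, minus strand) are shown because they differ in composition, with CpG dinucleotides in capitals and, in the third, also the TCF/LEF heptamer CTTTGAT.
Wnt5b upstream start, chr6:119544348-119544597: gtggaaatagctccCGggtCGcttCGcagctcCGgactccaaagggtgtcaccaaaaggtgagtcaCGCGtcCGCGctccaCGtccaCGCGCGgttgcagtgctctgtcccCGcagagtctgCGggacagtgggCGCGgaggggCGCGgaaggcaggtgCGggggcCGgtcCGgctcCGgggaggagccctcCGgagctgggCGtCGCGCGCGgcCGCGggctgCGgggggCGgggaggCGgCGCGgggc
Wnt5b middle start, chr6:119467212-119467461: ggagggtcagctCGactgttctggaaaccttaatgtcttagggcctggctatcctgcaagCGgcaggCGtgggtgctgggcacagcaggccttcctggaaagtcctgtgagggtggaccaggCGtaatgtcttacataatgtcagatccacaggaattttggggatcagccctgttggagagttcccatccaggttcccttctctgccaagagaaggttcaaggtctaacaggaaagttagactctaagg
Wnt5b downstream start, chr6:119449387-119449636: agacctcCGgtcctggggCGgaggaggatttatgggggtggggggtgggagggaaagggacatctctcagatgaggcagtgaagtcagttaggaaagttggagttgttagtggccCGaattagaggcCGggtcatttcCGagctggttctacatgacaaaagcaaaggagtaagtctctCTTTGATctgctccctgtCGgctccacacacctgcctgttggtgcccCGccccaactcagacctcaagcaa
The window of the upstream start, which held most of the TPM, has 35 CpG dinucleotides, the middle one 4 and the downstream one 7.

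Wnt7b was also divided between 2 starts, 239 bases apart. Wnt7b-202 led with 59.8% in pup 1 and 50.4% in pup 2, and Wnt7b-201 followed with 37.4% and 45.1%. In pup 2 their TPM intervals overlapped (6.56 to 9.13 and 5.65 to 8.35), so the lead there is not resolved. Wnt7b-203 held 2.81% and 4.57%. Wnt11 was led in pup 1 by Wnt11-204 (39.5%, and 12.1% in pup 2) and in pup 2 by Wnt11-202 (48.9%, and 29.3% in pup 1), both annotated for nonsense-mediated decay. The protein-coding Wnt11-205 held 28.3% and 37.6%. With 50 and 103 counts, the TPM intervals of Wnt11-202 and Wnt11-204 overlapped between the pups. For Wnt6 the protein-coding Wnt6-201 held 89.4% and 89.9%, and a retained-intron transcript the rest.

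Of the 10 Frizzleds 9 were detected, a few of them held most of the TPM, and the class sum was close in both pups. Fzd3, the receptor required for growth of major axon tracts, was highest at 21.23 TPM in pup 1 and 22.89 in pup 2 (chromosome 14). Fzd9, a receptor of neural precursors, followed at 16.67 and 15.63, and Fzd1 at 10.03 and 11.04. Fzd3 and Fzd9 together held 53.9% and 53.4% of Frizzled TPM. Fzd2, which shares roles with Fzd1 and Fzd7, was at 7.22 and 6.86 TPM. Fzd6, the polarity partner of Fzd3, stood at 4.75 and 5.01, with Fzd6-202 holding 75.8% and 86.1% of it. The order from Fzd3 down to Fzd10 did not overlap between neighbours. Fzd10, a dorsal spinal cord receptor, was at 3.42 and 3.26 TPM, Fzd7 at 2.29 and 2.95, Fzd4, the vascular receptor of Norrin, at 2.46 and 2.36, and Fzd8 at 2.04 and 1.68. Fzd7 and Fzd4 overlapped in level, although the deposited intervals of Fzd7 itself did not overlap between the pups (1.90 to 2.56 and 2.61 to 3.21). Fzd5, the only Frizzled below 1 TPM, stood at 0.25 and 0.43.

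The beta-catenin co-receptors were low and unequal. Lrp6 was at 4.62 TPM in pup 1 and 5.34 in pup 2, and Lrp5 at 0.68 and 0.70, so Lrp6 exceeded Lrp5 6.79 and 7.63 times. Most of Lrp6 was the 9368-base Lrp6-201 (91.9% and 79.9%), while the 722-base Lrp6-203 held 4.28% and 20.1%. The latter shares rest on 2.13 and 17.8 expected counts, and their TPM intervals overlapped (0.0116 to 0.816 and 0.389 to 1.94). The summed Frizzled TPM was 13.3 and 11.9 times that of Lrp5 and Lrp6.

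Each antagonist family was led by 1 or 2 genes. Sfrp2 was at 40.93 TPM in pup 1 and 37.06 in pup 2 (chromosome 3), and Sfrp1 at 18.86 and 19.75 (chromosome 8), together 92.2% and 90.9% of the Sfrp sum. That sum does not include Frzb. Sfrp2 and Sfrp1 are secreted Wnt-binding proteins made by embryonic neural progenitors. Sfrp2 is overlapped on the other strand by Gm26771 (12.79 and 11.95 TPM). The counting is not stated to use strand, so how their reads were divided is uncertain. Sfrp4 (2.69 and 2.82 TPM) and Sfrp5 (2.35 and 2.88) were far lower and overlapped each other. Dkk3, a divergent family member that is not a typical Lrp antagonist, was the highest of all members by mean level, at 40.32 and 40.65 TPM (chromosome 7). Its range overlapped that of Sfrp2. The classical Lrp antagonists were low: Dkk2 was at 1.24 and 1.12 TPM, Dkk1 at 0.55 and 0.61, and Dkk4 had 0 counts in pup 1, which allows up to 0.144 TPM, and 1 count in pup 2.

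Among the R-spondins, Rspo3 and Rspo2 were close in level and held 83.0% and 82.3% of the class. Rspo3, a vessel and mesenchyme regulator, was at 4.27 TPM in pup 1 and 4.59 in pup 2, and Rspo2, which also acts at the neuromuscular junction, at 3.61 and 5.32. Which of the pair was higher differed between the pups. Rspo1 was at 0.90 and 1.24 TPM and Rspo4, a nail gene, at 0.71 and 0.89.

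Between the pups, most well-counted members were close. Among members, 25 had a mean count of 100 or more, and 22 of these 25 differed by less than 1.5-fold in TMM-scaled CPM, counts brought to a common library size. This was a smaller share than the 98.0% of 13545 genes at that count. Of the members only Wnt6 differed at least 2-fold, by 1.01 on the log2 scale or 2.01-fold higher in pup 2 (248 and 735 counts), beside 0.472% of genes differing 2-fold either way and 0.413% in that direction. Its 95% exact counting interval ran from 1.75-fold to 2.34-fold and covers counting error only. Wnt6 sat at the threshold: with library totals as the scale it fell just short at 0.99 on the log2 scale, and with spike-in totals it was at 0.72. Next below the threshold, Wnt5b was 1.67-fold higher in pup 2, Rspo2 1.54-fold and Wnt9a 1.42-fold. None of the 25 lay 1.5-fold lower in pup 2, and Fzd8 had the lowest ratio at -0.20 on the log2 scale.

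Members leaned to higher values in pup 2, by little. The median log2 ratio was 0.14 over the 25 members and 0.00 over all genes tested, and 18 of 25 were above 0 with TMM scaling, 17 with library totals and 7 with spike-in totals, a scale that moved the median of all genes to -0.29. The deposited TPM intervals of the pups did not overlap for 6 of the 25, beside 23.6% of genes, and in all 6 pup 2 was higher, beside 7.72% of genes. These were Wnt6, Wnt5b, Wnt4, Wnt9a, Fzd7 and Rspo2. For Wnt6 the intervals were 6.58 to 9.06 and 13.4 to 16.4 TPM, and for Rspo2 3.05 to 4.00 and 4.74 to 5.70.

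Markers of other tissue moved between the pups as well. All 9 of 9 counted meningeal and fibroblast markers were higher in pup 2, with log2 ratios from 0.34 to 1.32, among them Ptgds at 1.32 and Foxc1 at 0.88. The 10 genes of that list summed to 1713 TPM in pup 1 and 3212 in pup 2, a ratio of 1.88, and to 791 and 1022 without Ptgds, a ratio of 1.29. Sensory ganglion markers summed to 174 and 259 TPM, with 4 of 7 counted genes at least 2-fold higher in pup 2, among them Avil, P2rx3 and Scn10a, each by 6.90-fold or more. Oligodendrocyte lineage markers summed to 319 and 582 TPM. Hox10 to Hox13 genes summed to 299 and 168 TPM, with 3 of 7 counted genes (Hoxc11, Hoxd11 and Hoxc12) at least 2-fold lower in pup 2. Pericyte (49.2 and 38.0), cartilage and bone (16.0 and 12.2) and endothelial sums (273 and 228) were lower in pup 2. Astrocyte (1511 and 1476), neuron (2932 and 2712), progenitor (468 and 466), roof plate (24.0 and 23.8), microglial (194 and 204), Schwann cell (225 and 215) and skeletal muscle sums (59.5 and 59.2) had ratios of pup 2 over pup 1 between 0.925 and 1.05. The part of these differences in the Wnt6, Wnt5b and Rspo2 values was not tested.

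**Figure D4:**
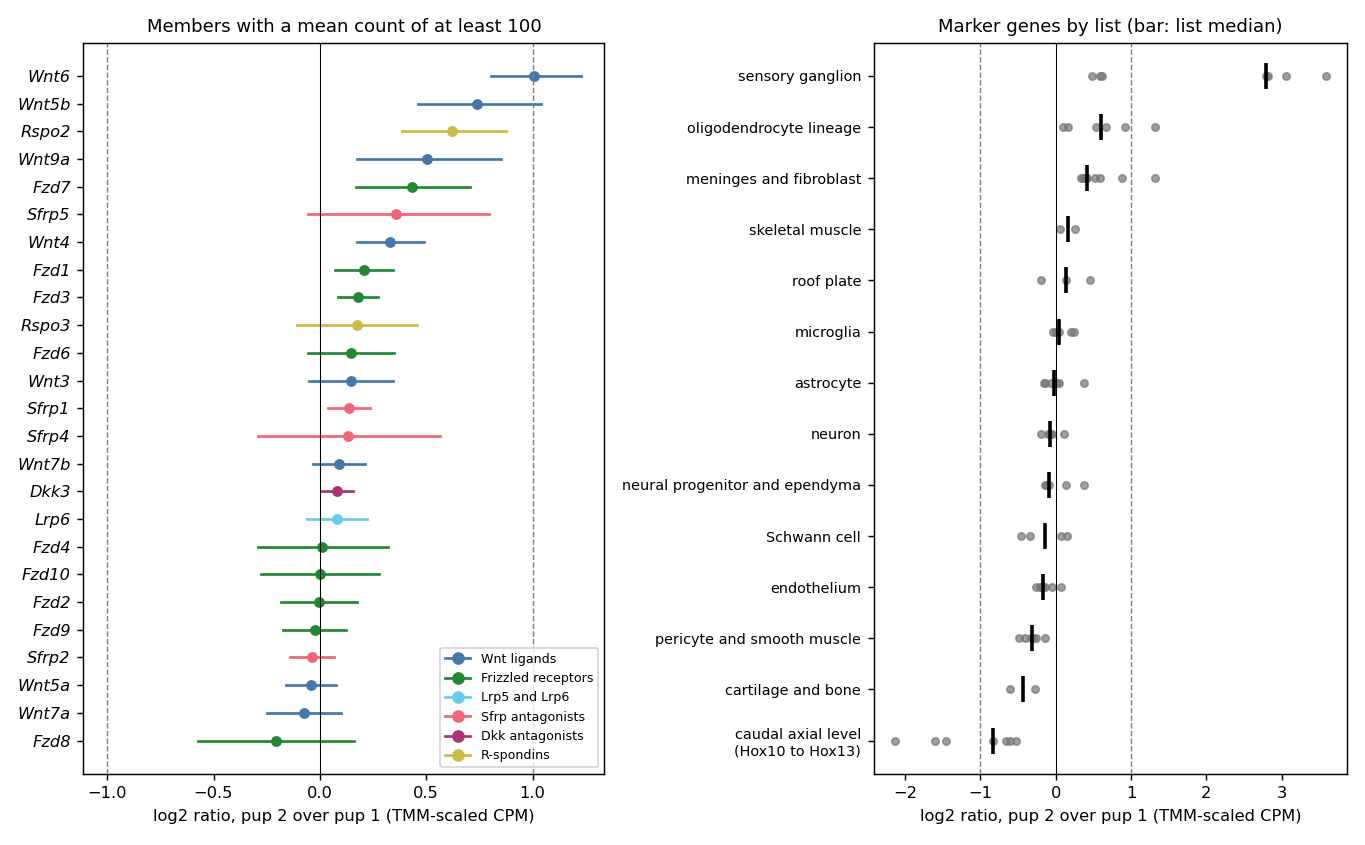
The left panel gives the log2 ratio of pup 2 over pup 1 in TMM-scaled CPM for the 25 counted members, with 95% counting intervals, and the right panel gives single marker genes (points) and list medians (bars); dashed lines mark 2-fold. Wnt6 alone among members reaches the 2-fold line, and the right panel shows meningeal and sensory ganglion genes above 0 and Hox10 to Hox13 genes below 0.

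Because Wnt6 was the member that differed most, the 250 bases before its RefSeq start are shown (GRCm38.p6, plus strand), with CpG dinucleotides, 28 in all, in capitals.
Wnt6 upstream window, chr1:74771642-74771891: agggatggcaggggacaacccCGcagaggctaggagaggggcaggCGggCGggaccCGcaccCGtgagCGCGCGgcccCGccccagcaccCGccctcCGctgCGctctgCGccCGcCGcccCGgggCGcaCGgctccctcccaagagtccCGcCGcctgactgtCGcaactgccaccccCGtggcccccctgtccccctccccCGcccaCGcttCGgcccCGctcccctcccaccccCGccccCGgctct
RefSeq start windows, 250 bases before and 50 after the start, were matched for 27 of 43 members, 30 windows in all. They held a median of 28 CpG dinucleotides, against 7 over 32851 windows of all genes. Unlike the members, that reference set was not limited to protein-coding genes. The medians were 27.5 over the 18 windows of 15 detected members and 28 over the 12 windows of 12 others. Wnt5b and Wnt11 each entered with several windows, so detected and other genes were not compared at a single window each. Dkk3, Sfrp1, Fzd3, Wnt7b and Wnt5a were among the 16 members without a window. The TCF/LEF heptamers CTTTGAT and CTTTGAA, searched on both strands, occurred in 3 of the 30 member windows (10.0%), beside 8.65% of all windows. The 3 were the downstream start of Wnt5b, a start of Wnt11 and the start of Dkk1, a gene known as a Wnt target. Each match is a description of letters only.

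The rest of the pathway was present throughout, from secretion to transcription. All 5 of 5 genes of the secretion list were detected, with the cargo receptor Tmed2 at 224.64 and 243.93 TPM, the acyltransferase Porcn, which lipidates Wnts, at 40.32 and 33.90, the carrier Wls at 34.04 and 38.50 and Tmed5 at 22.97 and 23.98. Notum, lowest at 12.57 and 11.30, removes that lipid outside the cell and is an antagonist rather than a secretion factor. Of the co-receptors and receptor modulators 16 of 19 were detected, led by the glypicans Gpc3 (73.95 and 92.02) and Gpc6 (13.82 and 13.10), the Norrin co-receptor Tspan12 (70.10 and 74.26) and the polarity co-receptor Ptk7 (18.27 and 17.26), with Musk lowest (0.39 and 0.31). Ryk, a Wnt receptor that repels corticospinal axons, was named after its values were seen: it stood at 8.94 and 15.77 TPM, 1.85-fold higher in pup 2. The vessel partners of the Wnt7 ligands, Reck (4.65 and 4.65) and Adgra2 (2.08 and 2.29), were detected and were likewise named after their values were seen.

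Of 10 other extracellular modulators, listed as antagonists, 9 were detected. The list also holds Ndp (7.59 and 6.83 TPM), which encodes Norrin, an activating ligand of Fzd4, and was named after its values were seen. Igfbp4 (95.03 and 87.47 TPM) and Cthrc1 (71.67 and 87.52), which modulate Wnt binding among other functions, were highest. Frzb, an Sfrp relative without the Sfrp symbol, stood at 44.14 and 40.86, above Sfrp2 and Dkk3 in each pup, and Sostdc1 at 20.04 and 22.19. Sost, a bone antagonist, was lowest at 0.06 and 0.08.

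Intracellular genes had higher median levels than the members. All 18 of 18 destruction complex and Dvl genes were detected, with a median of 26.5 TPM, among them the kinases Csnk1a1 (178 ± 2.04), Csnk1e (122 ± 11.5) and Gsk3b (118 ± 3.46) and beta-catenin itself, Ctnnb1 (168 ± 4.98). Axin2, both a scaffold and a target gene, was lowest at 5.33 and 6.52. All 15 of 15 TCF/LEF genes and cofactors were detected, with a median of 16.9 TPM, among them the Tle family member Tle5 (listed as Aes) at 607 ± 42.7. The corepressors Ctbp1 and Tle2 were at 244 ± 19.6 and 45.1 ± 3.56, and the coactivator Bcl9 at 34.89 and 36.18. Tcf7 was lowest at 4.65 ± 0.580, and Lef1 and Tcf7l2, named after their values were seen, were at 5.46 and 4.86 and at 17.44 and 22.91. Of 16 beta-catenin target and feedback genes 13 were detected, led by Myc (39.56 and 36.79), Ccnd1 (24.13 and 28.56), Tnfrsf19 (19.92 and 17.68) and the Dvl-binding inhibitor Nkd1 (20.15 and 16.89). Cdx2 had 0 counts in both pups, and Axin2, Notum and several others also stand in another list. Of the planar polarity genes 15 of 16 were detected, with the GTPases Rac1 (271.33 and 271.68) and Rhoa (204.72 and 211.49), the cadherin Celsr2 (32.64 and 30.22) and Vangl2 (30.65 and 27.25) highest, and Celsr1 lowest (0.64 and 0.62). None of the counted genes in these 7 lists differed 2-fold between the pups.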

How the data were processed

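Total RNA above 200 bases (10 ng per library, per the labels) of 2 pups was analysed from 1 gene and 1 transcript table per pup. Per the file headers, the tables hold expected counts, TPM, lower and upper bounds of the TPM (a signal that is never negative), posterior means and the percent of a gene's TPM per transcript (IsoPct), in RSEM's column names. The deposited expected counts and TPM were used as the authors made them, on mm10 with GENCODE M4 per the deposited notes, for each library on its own. Aligner and strand setting: not given in the sources used here. The authors' estimate splits reads that fit several similar or overlapping genes. The 96 spike-in rows (335 and 603 counts) were used only as an alternative scale.

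Symbols, biotypes and positions came from GENCODE M21 (GRCm38, the same build), matched on ID without version, with symbols for 42462 of 43346 gene rows. Tle5 was matched as Aes. Promoter windows came from RefSeq (GRCm38.p6). Expected counts were rounded, scaled with TMM (edgeR 4.0.16, R 4.3.3) or DESeq2 1.42.0, and compared as log2 CPM with a prior count of 2. Steps were tested on simulated data. Python 3.11.15, pandas 2.3.3, numpy 2.4.6 and matplotlib 3.10.9 were used. Depth limits precision: a count of 0 allows up to 3 counts, and counting intervals and floors cover counting error only. The deposited TPM intervals can be wider than that, as for Wnt5b-203 in pup 1 (104 expected counts, near 0 to 2.90 TPM). None of these intervals covers variation between animals.

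The members and lists were chosen with earlier results of these data known. All members are named; of each pathway list the 4 highest, the lowest, any at 1 TPM in exactly 1 pup and any past 2-fold are named. Alternatives were the detection threshold, the TPM estimate and denominator, the transcripts counted, the scaling, the prior count and the count filter.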

Additional observations from a re-analysis of the deposited data

How the results depend on the processing

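Detected members numbered 33 and 23 at TPM thresholds of 0.5 and 2, 30 by posterior mean TPM (with Wnt2, Rspo1 and Wnt16), 29 after rescaling to nuclear protein-coding genes, 26 on protein-coding transcripts only (without Wnt11) and 28 without either pup, against 27. Rescaling to nuclear protein-coding genes raised the class sums to 93.9 TPM for Wnts, 88.8 for Frizzleds, 7.07 for Lrp5 and Lrp6, 79.4 for Sfrps, 52.7 for Dkks and 13.4 for R-spondins, since it removes other RNAs from the total. By posterior mean TPM the Frizzled sum was 69.8 and the Dkk sum 41.2, each further from the main value than the SD of the pups. On protein-coding transcripts only, Wnt11 dropped to 0.725 TPM and Wnt2 to 0.855. The Wnt2 transcript left out has no match in GENCODE M21, so its type is unknown. The number of members past 2-fold was 1, and 0 with library totals or spike-in totals. Of members with a mean TPM of at least 5 and several transcripts, 5 of 6 shared their top transcript, a smaller set than the 11 of the main count. Leaving out Ptgds from the meningeal list was chosen after seeing the data. No paired analysis was possible because the series has 1 group. Depth limits members with few counts, such as Wnt3a, Wnt8a, Wnt8b, Wnt10b and Dkk4, whose ratios between pups cannot be read.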

Other observations

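For Wnt5a, counts and TPM gave different ratios between the pups. Its TMM-scaled counts were 0.970 of pup 1 in pup 2, with a counting interval from 0.894 to 1.05, while its TPM was 0.847 of pup 1. The effective length behind the TPM, which follows the transcripts to which reads were assigned, was 4544 bases in pup 1 and 4966 in pup 2. For Wnt2, the detection in pup 1 alone rests in part on a transcript with no match in GENCODE M21, which was assigned 46.8% of Wnt2 in pup 1 and 0% in pup 2. The counts of Wnt2 were 48 and 54, and Wnt2-201 alone was at 0.77 and 0.94 TPM.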
